A study of Mus musculus with 16 samples.

Results

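The Clca genes measured here were every gene of the deposited tables whose symbol begins with Clca and a digit. There were 5 of them, Clca3a1, Clca3b, Clca4b, Clca4a and Clca1, among 5171 distinct genes in the 4 tables. The tables hold genes that the authors' DESeq2 test had called in at least 1 comparison, at a false discovery rate under 0.05, so each of the 5 genes was in effect selected on its measured differences, having been called once or more. The annotation of the same genome build (GENCODE, GRCm38) holds 8 Clca genes, 7 of them protein coding. Clca2, Clca3a2 and the pseudogene Clca4c-ps were in none of the 4 tables and were not analysed here.

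Colon RNA was compared between mice with and without colitis, in WT mice and in mice whose intestinal epithelium lacked the chromatin remodeller Smarcad1. All mice were males on a C57BL/6 background, and all groups, controls included, carried a microbiota enriched by bedding transfer and shared ventilation with donor mice, begun 2 weeks before treatment. The WT control group (3 libraries) and the KO control group (3 libraries) were untreated, and the WT colitis group (5 libraries) and the KO colitis group (5 libraries) had received 1% dextran sulfate sodium (DSS), a polymer that erodes the colonic mucus layer, in the drinking water for 15 days. KO denotes deletion of Smarcad1 exons by Cre under the villin (Vil) promoter, which is active in the epithelium, so the other cells of the tissue kept the gene. Ages were matched within the experiment but are not given in the sources used here. The sample labels call the tissue colon and the methods name the middle of the colon, whereas the design text of the series names small intestine. All 8 genes of a list of mature colonocyte markers, among them Aqp8 and Car1, were in the tables. That list was chosen with earlier results of these data known, and being called does not identify a tissue.

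Each value below is the authors' mean over the libraries of a group, on the log2 scale of reads relative to the library total (RPM, read counts scaled to libraries of 1 M reads). Values of single libraries were not used here, so no spread between mice is given, no test was run, and "rose" or "fell" is written only where the authors' test had called the gene in that comparison. The geometric mean library held between 8.005 M (WT colitis) and 10.1 M (WT control) counted reads. Smarcad1 itself differed by -1.18 between KO and WT control and by -1.13 between KO and WT colitis on the log2 scale. Since tissue was sequenced, fewer cells of a type and less RNA per cell cannot be told apart in any value below.

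Clca genes encode secreted or membrane-anchored proteins that cleave themselves and that modulate calcium-activated chloride currents, although they were first taken for chloride channels. Clca1 is an abundant protein of goblet cells, where it is secreted with mucus and acts as a metalloprotease in the mucus layer. Clca4a is expressed in enterocytes. The family is a tandem cluster of related genes, and near-identical copies can share sequencing reads.

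All 5 genes lay on the minus strand of chromosome 3 within 303.1 kb (GRCm38, chr3:144729677-145032776), and each had 14 exons in its longest annotated transcript. From the low to the high coordinate these were Clca3a1 (chr3:144729677-144760977), Clca3b (chr3:144822623-144849357), Clca4b (chr3:144910921-144932529), Clca4a (chr3:144952480-144975045) and Clca1 (chr3:145003817-145032776). All 5 are protein coding, and the coordinates of the tables were identical to those of the annotation. Among these 5 genes, Clca4b and Clca4a were the closest neighbours, with 19.95 kb between them. The coding sequences of Clca4b and Clca4a, 2775 bases each, aligned without gaps and differed at 110 bases, an identity of 96.0%. Clca4b and Clca1 shared 62.7% of aligned coding bases, and Clca3a1 and Clca3b shared 86.7%.

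In colitis the means of Clca4b were higher and those of Clca4a, which was called in KO alone, were lower. The stretch that separates them best is therefore shown. It is the 100-base window, the length of the reads, with the most differences between their coding sequences (11 differences, coding bases 2598 to 2697 counted from the start codon). The window lies in 1 exon of each gene, at chr3:144911191-144911290 for Clca4b and chr3:144952756-144952855 for Clca4a, minus strand of GRCm38. Capitals mark the bases that differ.
Clca4b: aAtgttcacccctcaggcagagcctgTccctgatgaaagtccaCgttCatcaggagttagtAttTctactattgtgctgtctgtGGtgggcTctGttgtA
Clca4a: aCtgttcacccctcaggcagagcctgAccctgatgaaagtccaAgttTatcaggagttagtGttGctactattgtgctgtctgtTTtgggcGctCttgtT
The longest identical stretch was 168 bases, and 173 of the 2676 windows of 100 bases along the coding sequence (6.46%) were identical in both genes. Over the whole transcript, 6.49% of the 100-base words of Clca4b, 17.3% of those of Clca4a, 7.62% of those of Clca3a1, 0.608% of those of Clca3b and 0 of those of Clca1 also occurred in another Clca gene. Only uniquely mapped reads had been counted, so most of either transcript could in principle give reads of its own, while errors of assignment between the copies were not tested.

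The promoters are shown for Clca4b, the gene with the largest change, and for Clca3a1, its weakly expressed relative. They are the 250 bases before the transcript start in RefSeq (GRCm38.p6), printed on the minus strand. Only these members had both a promoter sequence in the reference and a RefSeq start equal to that of the GENCODE gene. Clca4b covers chr3:144932530-144932779 and Clca3a1 covers chr3:144760978-144761227. Capitals mark matches to the motifs searched.
Clca4b: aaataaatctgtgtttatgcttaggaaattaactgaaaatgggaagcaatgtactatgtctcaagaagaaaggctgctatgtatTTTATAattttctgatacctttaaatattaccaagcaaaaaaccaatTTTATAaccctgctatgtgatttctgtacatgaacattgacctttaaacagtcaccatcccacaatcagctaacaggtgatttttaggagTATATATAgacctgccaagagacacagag
Clca3a1: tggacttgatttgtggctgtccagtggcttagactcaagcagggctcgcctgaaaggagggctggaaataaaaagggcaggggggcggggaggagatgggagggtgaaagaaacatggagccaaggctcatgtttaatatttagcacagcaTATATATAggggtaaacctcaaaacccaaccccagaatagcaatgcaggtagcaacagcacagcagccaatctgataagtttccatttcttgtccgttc
Of the motifs searched on both strands, matches were found for TATATA and TATAAA alone. TATATA occurred in Clca4b at overlapping positions from -29 to -22, the base before the start being -1, and in Clca3a1 from -99 to -92. TATAAA occurred in Clca4b on the opposite strand, where it reads TTTATA as printed, from -166 to -161 and from -119 to -114. In windows of the same length, TATATA was found in 5.25% and TATAAA in 12.4% of 32851 mouse promoters. No match was found in either window for TGANTCA (AP-1, in 6.75% of promoters), TTCNNNGAA (STAT, 7.02%), TTGCNNAA (C/EBP, 9.56%), CAAAGTNCA (HNF4, 1.19%), TTTATNG (CDX, 9.81%) or the NF-kB motif (3.90%). Nor was there one for the letters AGATAA, the only form of the GATA factor motif that was searched, which occur in 9.99% of promoters. The letters TGATAA, which the Clca3a1 sequence above contains, were not searched. The absence of AGATAA therefore does not show that a GATA motif is absent. These matches describe letters and not factor binding.

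To compare the genes with each other, the group means were set per kilobase of exon (RPKM). In WT control the order was Clca1 (4460 RPKM), Clca4a (378.6), Clca3b (150.8), Clca3a1 (2.54) and Clca4b (1.89). The same order held in KO control, with 2529, 327.9, 131.6, 2.19 and 1.70 RPKM. The 2 lowest genes stood 1.34-fold apart in WT control and 1.29-fold apart in KO control. The untreated colon thus had 3 genes at a high level and 2 at a low level.
In WT colitis the order was Clca1 (2012 RPKM), Clca4b (391.4), Clca4a (269.2), Clca3b (238.5) and Clca3a1 (4.27). In KO colitis it was Clca1 (1698 RPKM), Clca4b (312.3), Clca3b (231.1), Clca4a (222.7) and Clca3a1 (3.11). Clca4b moved from the last to the second place per kilobase in both genotypes, whereas Clca1 stayed first in all 4 groups. Clca3b and Clca4a were close to each other in both colitis groups. Whether neighbours in these orders differed by more than the spread between mice was not tested.

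**Figure D1:**
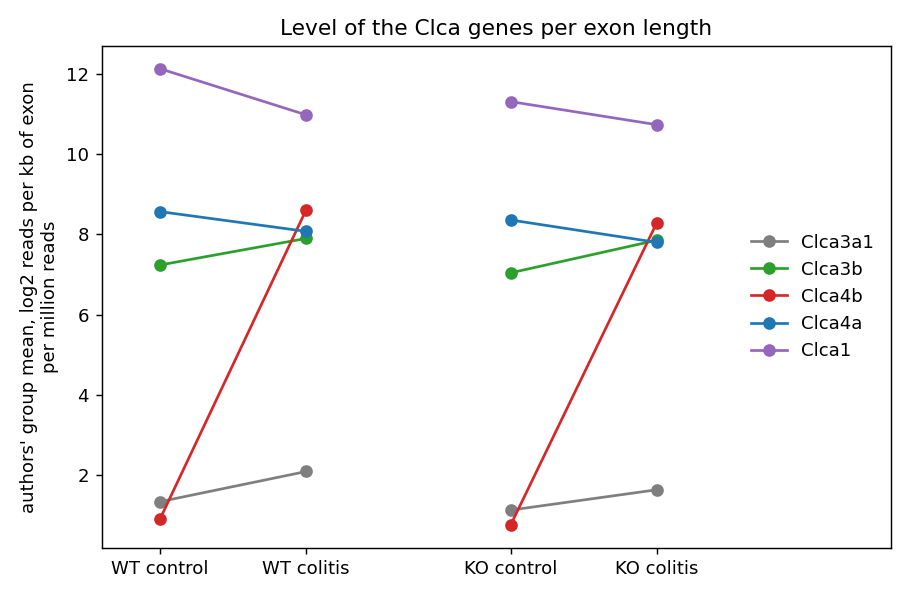
Level of each Clca gene, as the authors' group mean in log2 RPKM (vertical axis), in control and colitis groups of WT and KO mice. Points are group means with no error bars, because values of single libraries were not used; the line of Clca4b goes from the lowest place in control (1.89 RPKM in WT, 1.70 in KO) to the second place in colitis (391.4 and 312.3).

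To examine the colitis response, colitis was compared with control in each genotype. In WT, 1 of the 5 genes was higher by at least 1 log2 unit, beside 18.4% of all listed genes, and 1 was lower by at least 1 log2 unit, beside 13% of all listed genes. In KO, 1 gene was higher by that much, beside 16% of listed genes, and 0 were lower, beside 12.6%. The authors' test had called 3 of the 5 genes in WT (63.1% of the listed genes are in that table) and 3 of the 5 in KO (78.4%). Clca4b was in both tables, Clca3a1 and Clca1 in that of WT, and Clca3b and Clca4a in that of KO. In either genotype 3 genes were higher and 2 lower in colitis, beside 54% of listed genes higher in WT and 54.3% in KO. The genes were in the tables because of these same comparisons, so the counts describe them and support nothing further. The median difference over the 5 genes was 0.66 in WT and 0.51 in KO, and over all listed genes 0.13 and 0.19.

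Clca4b rose in both genotypes. On the log2 RPM scale it stood at 2.50 in WT control, 2.35 in KO control, 10.20 in WT colitis and 9.87 in KO colitis. These values correspond to 5.65, 5.09, 1173 and 936 RPM, or about 57.2, 49.7, 9389 and 9233 reads in a library of typical size. The rise was 7.70 on the log2 scale in WT, 207-fold, and 7.52 in KO, 184-fold. Both control means were far above 3 reads, and counting error alone gave 95% intervals of ±0.22 (WT) and ±0.23 (KO) log2 units around them. Among the 5171 genes, ordered by RPM and not per length, Clca4b went from place 4059 to place 57 in WT and from place 4123 to place 106 in KO.

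By size of the rise, Clca4b was the third of all listed genes in WT, after Reg3b (10.37) and Reg3g (7.74), which encode secreted antimicrobial lectins and were the only members of a list of 7 Reg genes in the tables. In KO it was the second, after Reg3b (7.75), and the first of those in the KO table, which does not hold Reg3b. Genes with a control mean no higher and a colitis mean no lower than those of Clca4b were rare. In WT, 2 genes met this description, Clca4b itself and Reg3b, and in KO only Clca4b did. The other 4 Clca genes lay between -1.15 and 0.75 in WT and between -0.57 and 0.81 in KO on the log2 scale.

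**Figure D2:**
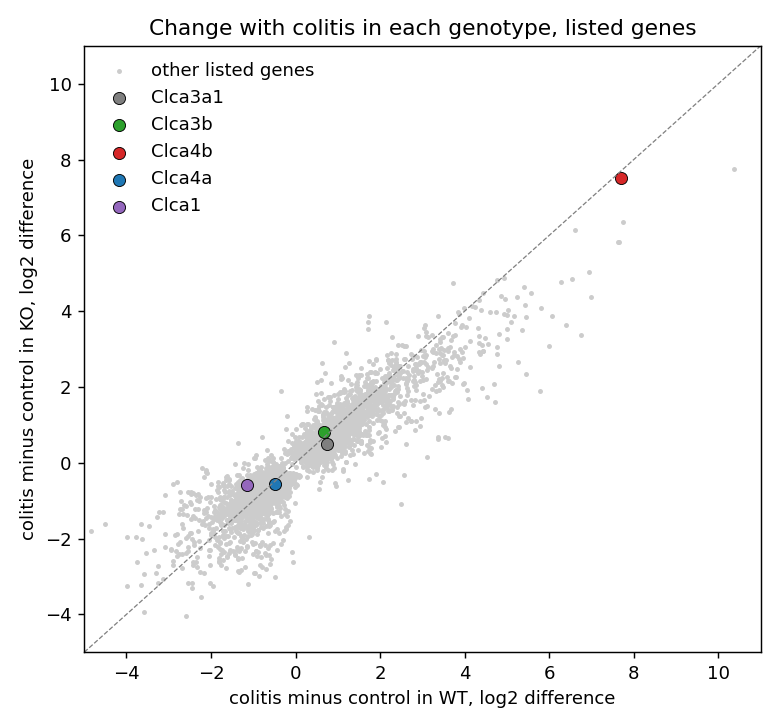
Difference between colitis and control in WT (horizontal axis) and in KO (vertical axis), both in log2 units, for the 5171 listed genes, with the Clca genes coloured and the dashed line marking equal differences. Clca4b (7.70 and 7.52) lies near the line at the upper end, and the other 4 Clca genes lie within 1.15 log2 units of no change on both axes.

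Clca4a, the closest relative of Clca4b, was lower in colitis. Its mean was 10.15 log2 RPM in WT control, 9.94 in KO control, 9.66 in WT colitis and 9.39 in KO colitis. It fell by 0.56 in KO, 1.47-fold. In WT, where it was not called, the difference was -0.49. Clca4a was 200.7 times as high as Clca4b per kilobase in WT control and 193.0 times in KO control, while in colitis Clca4b was the higher one, 1.45-fold in WT and 1.40-fold in KO. In RPM, which the different exon lengths hardly affect here (2997 and 3004 bases), Clca4b stood at 0.497% of Clca4a in WT control and at 0.517% in KO control. In colitis it stood at 145.0% in WT and 139.9% in KO.
A sum of counts over both genes would not depend on how the reads are divided between them. Here the group means of log2 values were returned to the linear scale and added, and such a sum need not have this property. The sum of both genes taken in this way was 1143 RPM in WT control, 990 in KO control, 1982 in WT colitis and 1605 in KO colitis. It was thus 1.73-fold higher in colitis in WT and 1.62-fold higher in KO. The difference of Clca4b in RPM was thus larger than that of Clca4a in either genotype. An antisense gene, Gm16233, overlaps 334 exonic bases of Clca4a (11.1%). The sources used here do not say whether strand was used in counting, and without it the reads of that overlap cannot be told apart.

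Clca3b and Clca3a1, whose coding sequences shared 86.7% of aligned bases, were both higher in colitis. Clca3b stood at 8.99 log2 RPM in WT control, 8.79 in KO control, 9.65 in WT colitis and 9.60 in KO colitis. It rose by 0.81 in KO, 1.76-fold, and differed by 0.66 in WT, where it was not called. Clca3a1 stood at 3.31, 3.10, 4.06 and 3.60 log2 RPM in the same order of groups. It rose by 0.75 in WT, 1.68-fold, and differed by 0.51 in KO, where it was not called. It had about 100.0, 83.5, 133.2 and 119.8 reads in a typical library of these groups, and counting error alone gave 95% intervals between ±0.11 and ±0.18 log2 units. Its coding sequence is 97.1% identical to that of Clca3a2, which lies between it and Clca3b and was not analysed here, and its exons overlap the antisense Gm34866 over 170 bases (4.36%).

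Clca1, the goblet cell protein, was the highest of the 5 genes in every group and lower in colitis. Its mean was 14.04 log2 RPM in WT control, 13.22 in KO control, 12.89 in WT colitis and 12.65 in KO colitis. In WT it fell by 1.15 on the log2 scale, 2.22-fold. In KO the difference was -0.57, 1.49-fold lower, and it was not called. By RPM it was the first of all listed genes in WT control, the third in KO control and the fourth in both colitis groups. The smaller difference in KO went with a lower control level, and KO minus WT was -0.24 log2 units in colitis and -0.82 in control.

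The 5 measured genes together took a smaller share of the reads in colitis, and Clca1 was the largest part of it in each group. The 5 genes made up 1.85% of the counted reads in WT control, 1.10% in KO control, 1.04% in WT colitis and 0.881% in KO colitis. Clca1 alone gave 91.0% of that sum in WT control and 86.9% in KO control, against 73.1% in WT colitis and 72.8% in KO colitis. The share of Clca4b in the sum was 0.0305% in WT control and 0.0463% in KO control, and 11.28% and 10.6% in the colitis groups. The sum differed between colitis and control by -0.83 log2 units in WT and -0.32 in KO. Without Clca1 it was higher in colitis, by 0.75 in WT and 0.73 in KO.

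**Figure D3:**
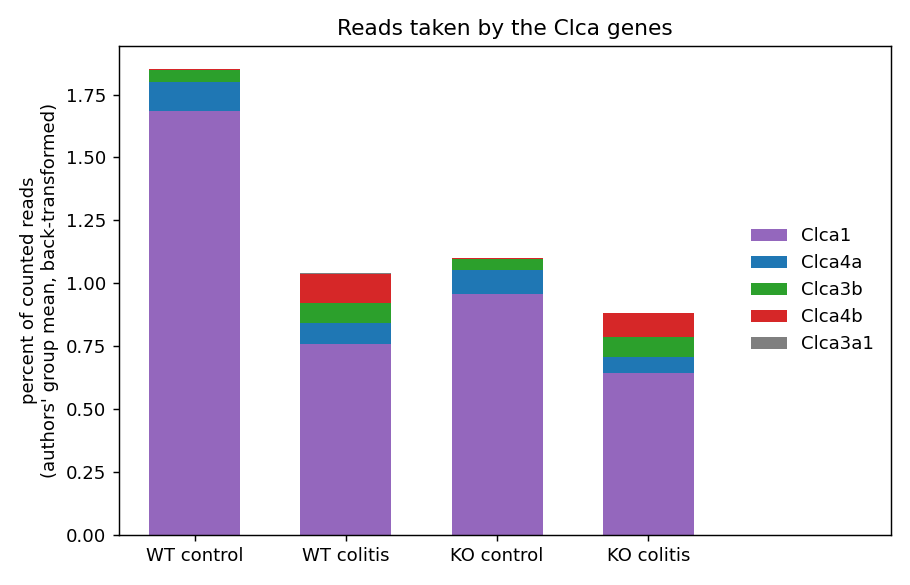
Percent of counted reads taken by each Clca gene in the 4 groups, from the authors' group means returned to the linear scale, stacked from Clca1 at the bottom. The stack is highest in WT control (1.85%), Clca1 is the largest part of each, and Clca4b is visible only in the colitis groups, where it is 11.28% (WT) and 10.6% (KO) of the stack; Clca3a1 is too low to be seen.

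To examine the effect of Smarcad1 loss, KO was compared with WT under each condition. The authors' test had called none of the 5 genes in either comparison. Those tables hold 46 genes in control (0.89% of the listed genes) and 56 in colitis (1.08%). All 5 means were lower in KO control than in WT control, beside 49% of listed genes, and all 5 were lower in KO colitis than in WT colitis, beside 52.6%. In control the difference was -0.82 for Clca1 and between -0.21 and -0.15 for the other 4 genes. Of all listed genes, 1.12% were lower than Clca1 in that difference. In colitis the differences were -0.46 for Clca3a1, -0.33 for Clca4b, -0.27 for Clca4a, -0.24 for Clca1 and -0.05 for Clca3b. None of the 5 genes reached a difference of 1 log2 unit in either comparison, as 1.82% of listed genes did in control and 4.39% in colitis. The medians over the 5 genes were -0.21 and -0.27. Over all listed genes they were 0.00459 and -0.0137.

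Values of other goblet cell genes in control are given beside that of Clca1. Of a list of 12 goblet cell genes the tables held 4, Clca1 included. The mean of Ang4, a secreted antimicrobial ribonuclease, was 7.95 in WT and 6.36 in KO on the log2 RPM scale. Retnlb, a secreted goblet cell protein that acts on bacteria, stood at 5.77 and 3.94. Muc13, a transmembrane mucin, stood at 11.81 and 11.86. Ang4 and Retnlb thus had differences of -1.59 and -1.83, none of the 4 genes was called there, and the part of goblet cell number in the value of Clca1 was not tested. In colitis Retnlb rose in WT (3.73) and had a difference of 4.73 in KO, Ang4 fell in KO (-1.95) and had a difference of -3.98 in WT, and Muc13 rose in both (0.70 and 0.64).

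The response of Clca4b to colitis was nearly as large in KO as in WT. The KO response minus the WT response was -0.17 log2 units for Clca4b, -0.24 for Clca3a1, 0.15 for Clca3b, -0.07 for Clca4a and 0.57 for Clca1. These differences of responses were not set against the variation between mice. For the 41 other genes whose responses averaged at least 4 log2 units over both genotypes, the median KO minus WT response was -1.27. Of these, 33 lay below Clca4b and 8 above it, namely F10, Gm12185, Iigp1, Ltf, Mcpt2, Nos2, Retnlb and Sirpb1a. Where both control means also had to exceed 3 reads, 15 genes remained, with a median of -0.77, 11 below Clca4b and 4 above it. All of these genes share the control and colitis groups with Clca4b.

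The genes whose 4 group means were most like those of Clca4b were sought by the root mean square distance after each gene's own average was removed. The closest were Reg3g (0.41 log2 units), Gm4841 (0.64), Reg3b (0.95), S100a8 (0.97), Saa3 (1.00), S100a9 (1.00), Cxcr2 (1.07), Prss22 (1.12), Cxcl2 (1.21) and Cxcl9 (1.31), over 4 groups. S100a8 and S100a9 encode the calprotectin subunits of neutrophils, Cxcr2 is a neutrophil chemokine receptor, Cxcl2 and Cxcl9 are chemokines, and Saa3 is a serum amyloid. All 10 had a smaller response in KO than in WT, the KO minus WT response lying between -2.62 and -0.48 log2 units, against -0.17 for Clca4b. That contrast belongs to this measure of likeness. Not every difference behind it was called, as Reg3b and Reg3g were not called in KO and Cxcl2 was not called in WT. The 10 genes nearest by Pearson correlation, among those that were higher by at least 2 log2 units in both genotypes, were 10 different genes, and their KO minus WT response lay between -0.27 (Sprr2h) and 0.06 (Gbp3), on either side of Clca4b. The nearest of them was Iigp1, an interferon-inducible GTPase, with differences of 4.25 in WT and 4.12 in KO. For Reg3g the means were 0.87 log2 RPM in WT control, 1.30 in KO control, 8.62 in WT colitis and 7.65 in KO colitis. Gm4841, S100a8, Cxcr2, Prss22 and Cxcl2 had both control means at or under 3 reads per library, so their responses depend on the value given to a count of 0.

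**Figure D4:**
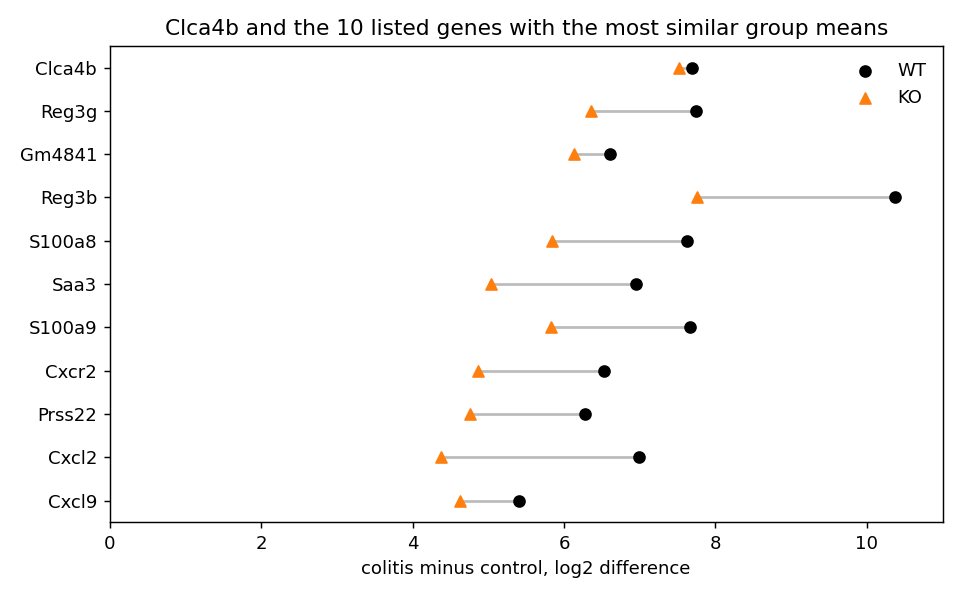
Difference between colitis and control in log2 units (horizontal axis) for Clca4b and the 10 listed genes with the most similar group means, in order of likeness, with WT as circles and KO as triangles. KO minus WT is -0.17 for Clca4b and between -2.62 and -0.48 for the others, with the KO value the smaller one in each; genes chosen by Pearson correlation, not drawn, lie between -0.27 and 0.06.

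The position of the genes was then examined. The tables held 7 other genes within 1 Mb of the cluster, namely Selenof, Sh3glb1, Gm34866, Gm16233, Odf2l, Cyr61 and Ddah1. Their differences between colitis and control were at most 1.79 in WT (Gm34866) and 0.81 in KO (Ddah1) in absolute size, with medians of 0.32 and 0.37. Clca4b, at 7.70 and 7.52, thus stood above every listed gene around it. The means of Gm34866 rest on few reads, at -1.70 log2 RPM in WT control and 0.09 in WT colitis. Along the cluster, Clca3a1, Clca3b and Clca4b, at the lower coordinates, were higher in colitis, and Clca4a and Clca1, at the higher coordinates, were lower. The listed Gm16233 differed by -0.35 in WT and fell by 0.45 in KO. Gm16233 and Gm34866 overlap exons of Clca4a and Clca3a1 on the opposite strand, and whether strand was used in counting is not given.

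**Figure D5:**
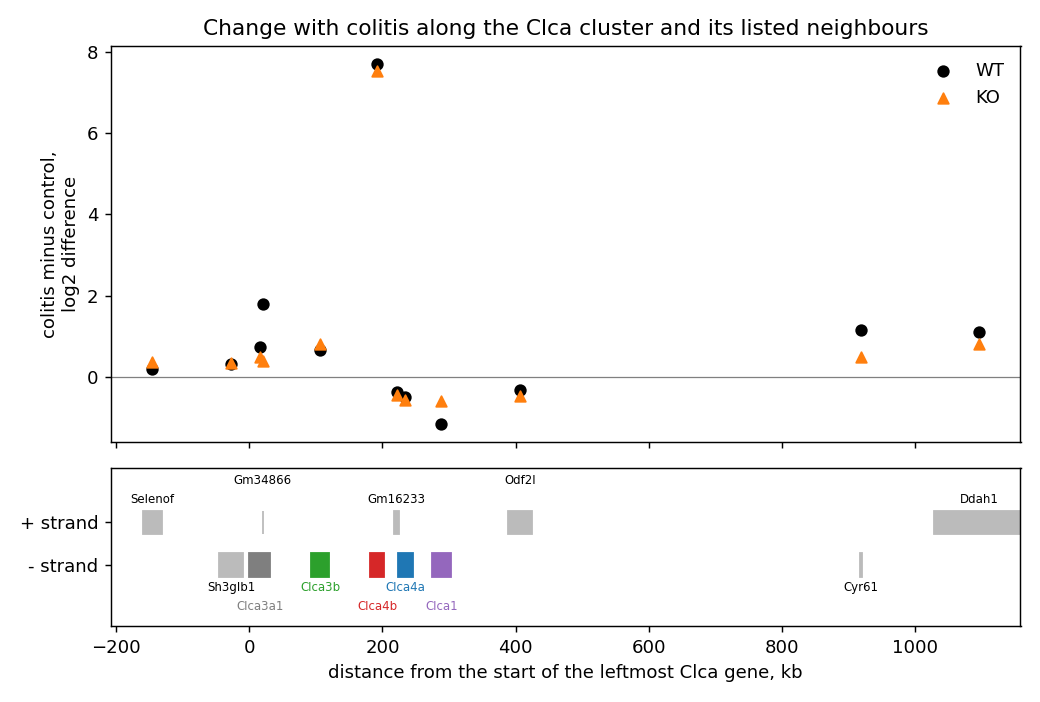
Difference between colitis and control in log2 units (upper panel) for the 5 Clca genes and the 7 other listed genes within 1 Mb, drawn at the middle of each gene, with WT as circles and KO as triangles; the lower panel draws the genes to scale on either strand, with distance in kb from the first Clca gene. Clca4b stands at 7.70 and 7.52, and every other gene lies between -1.15 and 1.79.

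Genes of a list of epithelial ion transport, mostly of anions, were considered next, since Clca proteins modulate chloride currents. The tables held 8 of the 17 genes of that list. Among them were Slc9a3, a sodium and proton exchanger, and Kcnq1, a potassium channel. Both fell in WT and neither was called in KO. In WT 7 fell and 0 rose, and in KO 4 fell and 0 rose, beside 26.4% of all listed genes called lower in WT and 33.6% in KO, with medians over the 8 genes of -0.79 and -0.57. Ano1, the calcium-activated chloride channel, fell by 0.89 in WT and by 0.64 in KO. Slc26a3, the chloride and bicarbonate exchanger of the colonocyte surface, fell by 1.31 and by 0.63. Cftr, the cyclic AMP-regulated chloride channel, fell by 0.69 in WT and differed by -0.16 in KO. None of the 8 was higher by 1 log2 unit in either genotype, and none was called between genotypes.

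For the other cell types, the counts stand beside 36.6% of all listed genes called higher and 26.4% called lower in WT, and 44.8% and 33.6% in KO. Of mature colonocyte genes the tables held 8 of 8, of which 5 fell in WT and 6 in KO (medians -1.07 and -0.89), with a summed level of 13.63 log2 RPM in WT control, 13.61 in KO control, 12.56 in WT colitis and 12.48 in KO colitis. Of leukocyte genes they held 8 of 9, and all 8 rose in both genotypes (medians 1.39 and 1.56). Of neutrophil genes they held 8 of 9, of which 6 rose in WT and 8 in KO (medians 4.98 and 4.06, or 4.40 and 3.07 with means under 3 reads raised to 3 reads), with summed levels of 2.12, 2.14, 7.66 and 5.84 log2 RPM in the same order of groups. In control, 5 of these 8 were at or under 3 reads per library in WT and 6 in KO. The means of these 8 neutrophil genes were lower in KO colitis than in WT colitis, with differences from -2.77 to -0.02 and none called. The difference of Clca4b, -0.33, lay within that range.
Of genes of regenerating epithelium the tables held 8 of 12, of which 7 rose in WT and 4 in KO (medians 1.15 and 0.74). Between KO and WT colitis, 7 of these 8 means were lower in KO, beside 52.6% of listed genes. Gja1 alone was called there (-0.42). Ly6a, a marker of regenerating crypts, rose by 2.53 and 2.42. Of squamous epithelium, found where the colon meets the anus, they held 2 of 14, Krt13 and Sprr1a. Krt13 rose in both genotypes, from control means under 3 reads per library to 0.24 log2 RPM in WT colitis and -0.33 in KO colitis, and Sprr1a rose by 1.46 in WT and differed by 0.95 in KO. Of smooth muscle genes they held 3 of 7, of which 2 fell in either genotype (medians -0.66 and -0.57). The part of these cell types in the values of the Clca genes was not tested.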

How the data were processed

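Colonic RNA was sequenced in 16 libraries of 4 groups, assigned by sample titles. Per the study's methods, the authors mapped reads to GRCm38 with HISAT2 (version 2.1.0, per the submitters' processing notes), kept uniquely mapped reads, removed reads over annotated rRNA because 3 samples were contaminated, counted reads over exons of merged transcripts in SeqMonk and ran DESeq2 for each comparison. The sources disagree on whether reads were single or paired end.

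The deposited values are log2 RPM (reads relative to the library total), averaged by the authors over the libraries of a group and not corrected for length. Judged by the lowest values, libraries without a read had been given 0.9 reads. The tables also hold the authors' adjusted p-values, which were not used beyond a gene's presence in a table. Genes in no table were not analysed here. Precision was limited by the number of libraries; intervals and the floor of 3 reads cover counting error only. Library sizes were recovered by taking the lowest mean of each group as no read, set to 0.9 reads, in every library. The low means then lay on the steps that whole reads give.

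Differences of means were taken on the log2 scale, levels per kilobase used the union of annotated exons, and no test was run, since values of single libraries were not used. Named genes were all Clca genes, the 10 genes closest to Clca4b, listed genes within 1 Mb and members of fixed lists. The members and lists were chosen with earlier results of these data known. Calculations used Python 3.11.15, pandas 2.3.3, numpy 2.4.6 and Biopython 1.88, and were tested on simulated data. Alternatives were a floor, offsets of 0.1 and 1 RPM, centring, a filter and other measures of likeness.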

Additional observations from a re-analysis of the deposited data

How the results depend on the processing

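Of 118 alternative values for 51 results, 114 stayed within the tolerance set for them (0.2 log2 units, or 1.5 times for ranks and counts) and none changed direction. Some of these could not have moved. No Clca mean lay under 3 reads per library, and the filter of genes above 3 reads in a group kept all 5171 genes. With 1 RPM added before the logarithm, the rise of Clca4b was 7.46 in WT and 7.26 in KO. Its rank in KO was 1 within the KO table. Raising means to 3 reads kept 7 of the 10 genes most like Clca4b, and Pearson correlation kept 0, as 117 of 249 candidate genes correlated above 0.99 over 4 means. Relative to the median listed gene, which was higher in colitis by 0.13 in WT and 0.19 in KO, no Clca gene changed direction. Scaling to general epithelial genes could not be computed, as 0 of 12 were in the tables. No paired analysis was possible because the deposited tables used here hold group means alone, which also kept replicates from being left out. Values by sample in the study's supplement were not used. The spread between mice therefore limits every difference, and that of Clca4b in control also rests on few reads (57.2 and 49.7 per library).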
